A study of Mus musculus with 188 samples.

Results

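Chromosome 11 of the mouse, an autosome rich in genes, was described in single embryonic stem cells (ESCs) caught during S-phase, the part of the cell cycle in which DNA is copied. Its members are all 50 kb bins of chromosome 11 that carry a call of replicated or unreplicated, 2376 of the 49588 such bins of all chromosomes and of the 46743 on autosomes. They lie between chr11:3100001-122000000 of mouse genome build mm10. The study gives these calls and a smoothed copy number score in separate tables. Of the 2376 bins, 2315 were scored in 50% or more of haploid and of diploid cells, the condition for use in everything that follows. The 61 bins left out were replicated in 76.3% of haploid and 60.3% of diploid observations, close to the bins that were kept.

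The haploid cells were of the line H129-2, which has 1 genome of the 129 mouse strain, and the diploid cells of the line F121-9, a hybrid with 1 129 and 1 Castaneus (cas) homolog of each autosome. Both lines were grown in N2B27 medium with 2i inhibitors and LIF, sorted by DNA content, mostly from mid-S-phase and in the haploid line also from its early and late parts, and their genomes amplified cell by cell and sequenced. Of 86 haploid and 96 diploid cells labelled as S-phase, 75 and 63 had values, and the 6 haploid G1 cells had none in the tables. The labels name a well for each cell but no plate or culture, so each line was taken as 1 sample. Cells are therefore not replicates of a line, no test between the lines was possible, and line, strain, ploidy and any batch of cells cannot be told apart. Errors are standard deviations (SD) over cells. Reads per cell were not in the tables, so the depth behind a single call is unknown.

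Mammalian chromosomes are copied in large segments, the replication domains, each of which is duplicated at a characteristic part of S-phase. Domains dense in active genes and in G and C bases tend to replicate early, and gene-poor domains near the nuclear edge tend to replicate late. In a single S-phase cell a replicated segment has a higher copy number than an unreplicated one, and the border between an early and a late domain shows as a step.

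The bin of chromosome 11 with the earliest average replication and the bin with the latest are shown by their middle 300 bases, with each CG dinucleotide in capitals, as examples of the sequence at both ends of the schedule. The early bin was chr11:113550001-113600000, inside Slc39a11, which encodes a zinc transporter. All 75 haploid cells had copied it, as had 58 of 63 diploid cells on both homologs. The late bin was chr11:38400001-38450000, with no protein-coding gene. A single cell of each line had copied it, 1 of 75 and 1 of 63. Over the whole 50 kb the early bin had 48.0% G+C and 13.5 CG per kb, and the late bin 36.7% and 5.02. The stretches shown do not carry that difference, with 0 CG in the early and 1 CG in the late one. Both sequences are from the plus strand of GRCm38.p6 (RefSeq), the assembly whose coordinates mm10 uses, which is of the C57BL/6J strain and not of 129 or Castaneus.
Middle of the earliest bin, chr11:113574851-113575150: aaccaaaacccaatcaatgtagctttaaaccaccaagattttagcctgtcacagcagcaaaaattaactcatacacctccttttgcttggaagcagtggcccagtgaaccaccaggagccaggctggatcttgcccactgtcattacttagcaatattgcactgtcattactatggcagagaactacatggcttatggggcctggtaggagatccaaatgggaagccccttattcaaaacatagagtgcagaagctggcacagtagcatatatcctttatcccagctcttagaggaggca
Middle of the latest bin, chr11:38424851-38425150: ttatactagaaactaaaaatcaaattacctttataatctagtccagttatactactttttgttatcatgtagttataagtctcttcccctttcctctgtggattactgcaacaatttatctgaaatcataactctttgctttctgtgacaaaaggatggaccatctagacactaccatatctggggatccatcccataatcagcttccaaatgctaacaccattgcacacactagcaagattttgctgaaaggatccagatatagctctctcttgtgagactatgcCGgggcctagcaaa

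Promoters (250 bases before to 50 bases after the annotated start, RefSeq, GRCm38.p6) are given for 4 genes on which the results below turn, again with CG in capitals. CG is its own reverse complement, so both strands were searched at once. Tanc2, a scaffold protein of synapses, is the longest gene that starts in the longest early domain and had an entry. Tenm2, a teneurin adhesion protein of neurons, is the same for the longest late domain. The Tenm2 start used lies inside the gene, which extends to chr11:37237053, so its CG count describes that start only. Vrk2, a serine/threonine kinase, and Fancl, the ubiquitin ligase of the Fanconi anaemia DNA repair pathway, start in the region that differed most between the lines.
Tanc2, chr11:105589736-105590035, plus strand: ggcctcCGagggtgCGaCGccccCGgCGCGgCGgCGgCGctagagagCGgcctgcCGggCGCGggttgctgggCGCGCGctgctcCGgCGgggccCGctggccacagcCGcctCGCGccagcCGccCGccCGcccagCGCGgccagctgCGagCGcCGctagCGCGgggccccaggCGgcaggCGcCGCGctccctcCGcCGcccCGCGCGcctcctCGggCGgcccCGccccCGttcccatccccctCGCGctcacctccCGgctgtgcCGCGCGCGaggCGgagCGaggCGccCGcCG
Tenm2, chr11:36944192-36944491, minus strand: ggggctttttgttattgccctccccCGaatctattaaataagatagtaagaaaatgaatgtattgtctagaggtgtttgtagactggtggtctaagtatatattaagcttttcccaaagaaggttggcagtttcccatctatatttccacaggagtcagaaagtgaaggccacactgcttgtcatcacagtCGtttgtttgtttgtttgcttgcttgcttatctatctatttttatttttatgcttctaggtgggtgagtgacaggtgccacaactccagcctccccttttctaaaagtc
Vrk2, chr11:26593871-26594170, minus strand: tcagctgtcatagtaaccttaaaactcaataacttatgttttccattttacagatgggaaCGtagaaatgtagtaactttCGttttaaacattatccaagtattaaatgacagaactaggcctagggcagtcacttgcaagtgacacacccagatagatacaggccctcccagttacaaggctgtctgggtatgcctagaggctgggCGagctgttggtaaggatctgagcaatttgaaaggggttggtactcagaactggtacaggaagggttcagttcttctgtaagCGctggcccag
Fancl, chr11:26386834-26387133, plus strand: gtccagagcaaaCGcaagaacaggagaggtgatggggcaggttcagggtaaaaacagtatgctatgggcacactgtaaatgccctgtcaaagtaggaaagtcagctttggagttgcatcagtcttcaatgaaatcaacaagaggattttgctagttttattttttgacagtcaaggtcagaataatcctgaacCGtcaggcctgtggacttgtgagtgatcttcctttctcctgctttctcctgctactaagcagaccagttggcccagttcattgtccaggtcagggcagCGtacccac
The Tanc2 promoter held 57 CG, the Tenm2 promoter 2, the Vrk2 promoter 4 and the Fancl promoter 3. Over 1238 chromosome 11 promoters with a replication time, the median was 17 CG, with 18 in 1136 early and 7 in 102 late promoters. On the other autosomes the medians were 17 in 11015 early and 3 in 2984 late promoters. At least 1 CG was present in 96.9% of chromosome 11 promoters and in 95.4% of those on the other autosomes.

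The name gene dense was borne out by the annotation. Chromosome 11 carried 1609 protein-coding genes, 13.2 per Mb, second among the 19 autosomes after chromosome 7 with 14.0, while the other autosomes had a median of 7.59. Its bins had the highest mean G+C of the autosomes, 43.8% against 40.5% to 43.4%. Early bins of chromosome 11 had on average 18.97 ± 12.8 genes within 500 kb (SD, n = 1500 bins) and late bins 3.19 ± 4.76 (n = 815). On the other autosomes these were 12.7 ± 10.1 (n = 21056) and 3.74 ± 6.47 (n = 21741). Across bins, the rank correlation of earliness was 0.745 with G+C and 0.742 with gene count on chromosome 11, and 0.813 and 0.745 on the other autosomes. Neighbouring bins share genes and smoothed scores, so these values only describe the map.

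To put bins on a time scale, all autosomal bins were ranked by their mean smoothed score over the 138 cells and the ranks spread over an S-phase of 10 h. The value is called the scheduled time. On this scale 64.8% of chromosome 11 bins were scheduled in the first 5 h, the highest share of the 19 autosomes, followed by 57.9% on chromosome 19 and ending with 38.7% on chromosome 3. The share rose along the chromosome. From the centromeric end, 4 equal parts of its covered length had 47.8%, 57.1%, 71.3% and 82.8% early bins, and their G+C was 41.3%, 43.0%, 44.5% and 46.4%. In haploid cells these parts were replicated to 69.8% ± 18.3, 68.2% ± 14.0, 81.2% ± 13.0 and 87.2% ± 7.89 (SD, n = 75 cells). In diploid cells they were at 49.8% ± 12.6, 55.8% ± 12.5, 69.7% ± 13.3 and 75.5% ± 12.7 (n = 63). The distal part was thus the most replicated in both lines, while both centromeric parts differed by less than the spread between cells in haploid cells.

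Runs of early and late bins, with runs under 5 bins joined to their neighbours, gave 18 early and 17 late domains with 34 borders. Early domains covered 76.8 Mb with a median length of 3.10 Mb, and late domains 41.9 Mb with a median of 1.55 Mb. Early domains were long for an autosome: the median length was second of 19 behind chromosome 5 at 3.58 Mb, and its 28.6 borders per 100 Mb were above only chromosomes 4 and 5, in a range of 24.2 to 49.1.

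The longest early domain, chr11:93750001-108250000, spanned 14.5 Mb and 391 protein-coding genes. It was scheduled at a mean of 2.58 h. Among mid-S-phase cells, those with 40% to 60% of the other autosomes replicated, it was replicated to 91.9% at the lowest, 100% at the median and 100% at the highest of 24 haploid cells, and to 52.3%, 91.7% and 100% in 46 diploid cells. The distal domain, chr11:112800001-121900000, was the earliest of the 35 with a mean of 1.5 h. It had a median of 99.7% in mid-S-phase haploid cells, from 85.2% to 100%, and of 98.0% in diploid cells, from 52.3% to 100%. It holds Rbfox3, a splicing factor of neurons, Rptor, the mTOR complex subunit raptor, and the Polycomb genes Cbx2 and Cbx8. Another long early domain, chr11:48500001-56000000, held the Th2 cytokine genes and was at a median of 99.7% in haploid and 92.1% in diploid mid-S-phase cells. All 24 haploid and all 46 diploid mid-S-phase cells had replicated at least 50% of each of these 3 domains.

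The longest late domain, chr11:36250001-43450000, spanned 7.20 Mb with 12 protein-coding genes, among them Tenm2, Atp10b, a lipid flippase, and subunits of the GABA-A receptor, the main inhibitory receptor of the brain. It was also the latest, at a mean of 8.44 h. Mid-S-phase haploid cells had replicated 0% at the lowest, 10.2% at the median and 22.5% at the highest, and diploid cells 0%, 5.28% and 31.7%. No mid-S-phase cell of either line had copied 50% of it. Among the 17 haploid cells with over 75% of the other autosomes replicated, it stood between 16.9% and 67.6%, with a median of 43.0%, so that it was unfinished in every one of them. The domain around Car10, a carbonic anhydrase-related gene, chr11:89500001-93750000, was next, at 8.09 h and with a median of 50.0% in those late cells.

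**Figure D1:**
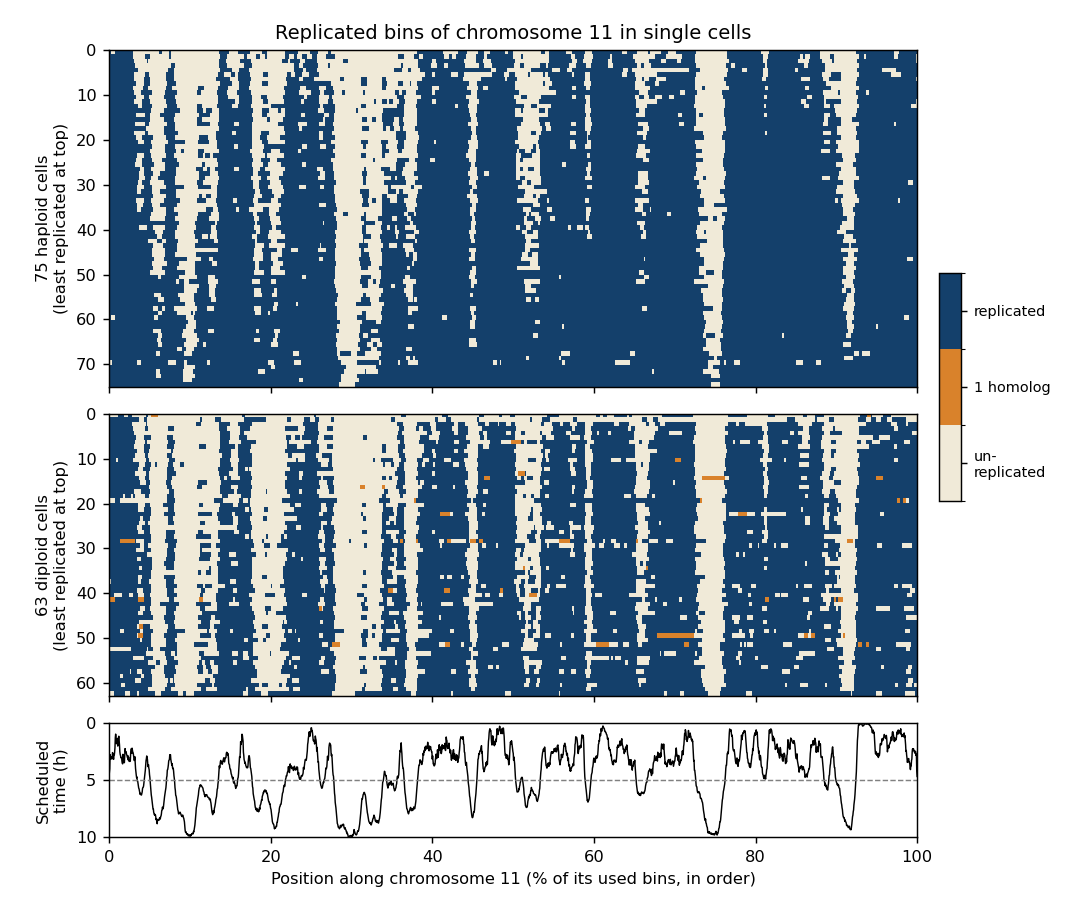
State of each used bin of chromosome 11 (columns, in order along the chromosome as % of its bins) in 75 haploid cells (top) and 63 diploid cells (middle), with cells in rows from the least to the most replicated on the other autosomes, and the scheduled time in hours with the 5 h line (bottom). Pale columns mark late domains, the broadest of which was scheduled at a mean of 8.44 h, and orange marks bins of diploid cells with 1 homolog replicated.

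The remaining long late domains fell between these extremes. The domain chr11:12800001-19400000 holds Egfr, the receptor of epidermal growth factor, and the homeobox gene Meis1. Its mid-S-phase medians were 22.6% in haploid and 9.52% in diploid cells. The domain chr11:109950001-112800000, with the kinase gene Map2k6 and a group of Abca lipid transporters, had medians of 14.0% and 7.89%. The domain chr11:24200001-29150000, with Vrk2 and Fancl, had medians of 35.9% in haploid and 4.17% in diploid cells, the widest gap of the 5 longest late domains. Values of single cells overlapped even there, from 4.17% to 65.6% in haploid and from 0% to 51.0% in diploid cells.

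Domains were often nearly all or nearly none replicated in a mid-S-phase cell, and short domains as a set differed little from longer ones in this. The 0.3 Mb early domain chr11:63850001-64150000, with Cox10, an assembly factor of cytochrome oxidase, was scheduled at 4.82 h. It was at most 10% replicated in 10, at least 90% in 11 and in between in 3 of 24 mid-S-phase haploid cells, and in 25, 15 and 6 of 46 diploid cells. Other short domains were not like this: chr11:56000001-57350000 was in between in 17 of 24 haploid and 19 of 46 diploid cells. Over the 13 domains of at most 25 bins, 95 of 312 haploid observations (30.4%) and 202 of 598 diploid observations (33.8%) lay between 10% and 90%. Over the 22 longer domains these were 186 of 528 (35.2%) and 374 of 1012 (37.0%). States were called on segments of several bins, and the part of that step in these shares was not tested.

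Domains were called early or late from the average of these cells, so a majority of cells with the early domain ahead is built in, and the counts that follow are a description. Of 816 comparisons of an early domain with its late neighbour in mid-S-phase haploid cells, the early one was more replicated in 621 (76.1%), equal in 126 (15.4%) and less replicated in 69 (8.46%). In diploid cells the counts were 1316 (84.1%), 154 (9.85%) and 94 (6.01%) of 1564. The early domain was never behind at 18 of 34 borders in haploid and at 13 of 34 in diploid cells.

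Cell by cell, chromosome 11 was ahead of the rest of the genome. In haploid cells 46.8% of its bins were replicated at the lowest, 78.4% at the median and 96.5% at the highest, and the difference from the other 18 autosomes was 16.3 ± 5.47 percentage points (SD, n = 75). The difference was above 0 in 75 of 75 cells. In diploid cells the values were 20.4%, 65.4% and 85.2%, the difference was 9.09 ± 3.01 points (n = 63), and it was above 0 in 62 of 63 cells. The exception, diploid cell C7, had 20.4% of both replicated. Chromosome 11 had the highest mean difference of the 19 autosomes in both lines, ahead of chromosome 19 with 10.5 and 6.22 points. It was the most replicated autosome in 51 of 75 haploid and 41 of 63 diploid cells, and among the first 3 in 72 and 62.

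**Figure D2:**
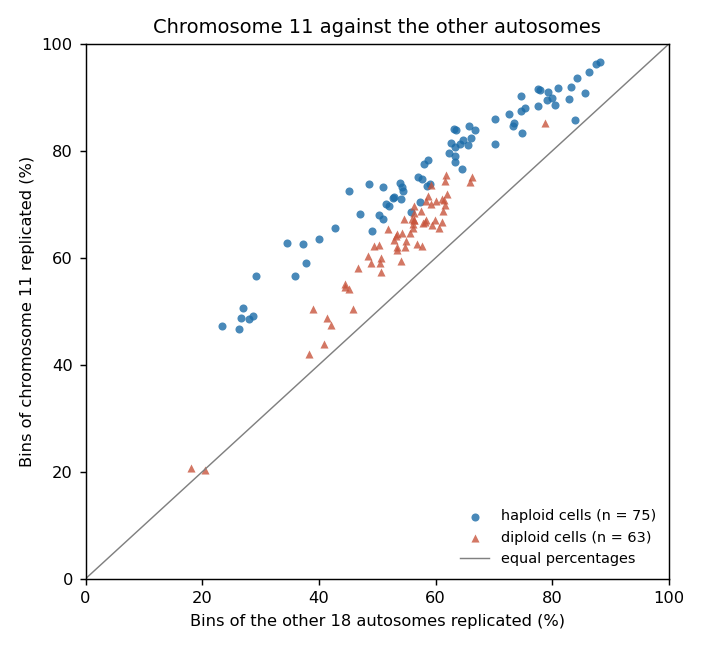
Percentage of chromosome 11 bins replicated (vertical axis) against the percentage of bins of the other 18 autosomes replicated (horizontal axis), 1 point per cell, with the line of equal percentages. All 75 haploid cells and 62 of 63 diploid cells lie above the line.

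The lead of chromosome 11 was widest early in S-phase in haploid cells. It was 23.1 ± 2.71 points in 12 haploid cells with under 40% of the other autosomes replicated, 18.6 ± 3.46 in 24 cells with 40% to 60%, and 12.8 ± 4.33 in 39 cells above 60%. In diploid cells it was 4.48 ± 4.92 (n = 4), 9.54 ± 2.65 (n = 46) and 8.92 ± 2.57 points (n = 13). In strata of 5 percentage points of progress that held cells of both lines, the lead was 18.2 points in 50 haploid and 9.08 points in 62 diploid cells. Between rows of wells the mean lead ran from 10.4 to 23.6 points in haploid and from 5.4 to 11 in diploid cells. The rows also differed in progress: the haploid row with the highest lead had a median of 29.2% and that with the lowest 83.6%. The mean lead was above 0 in each of 8 rows per line, the smallest of which held 1 haploid and 5 diploid cells.

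**Figure D3:**
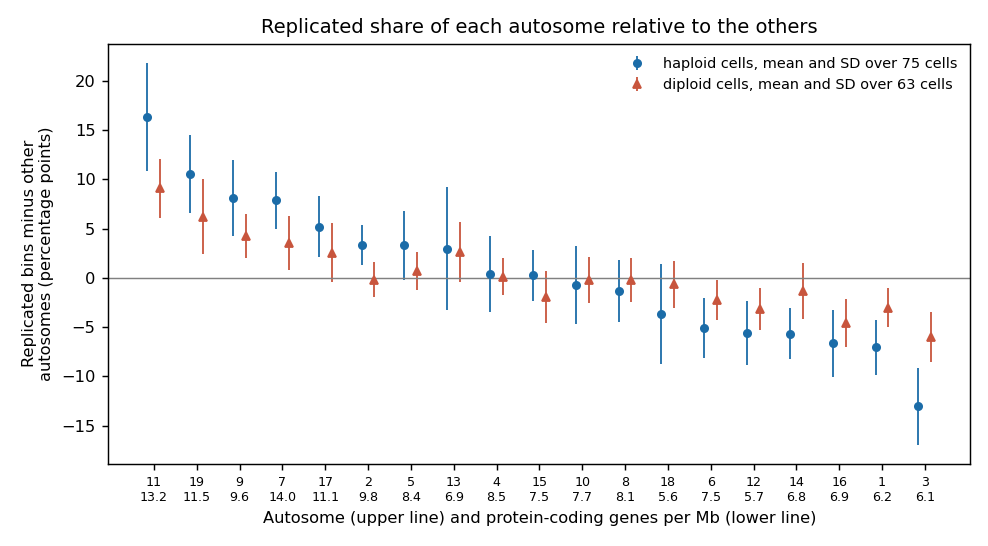
Replicated share of each autosome minus that of the other 18 (percentage points, mean and SD over 75 haploid and 63 diploid cells), with autosomes in the order of the haploid values and protein-coding genes per Mb under each number. Chromosome 11 is highest in both lines at 16.3 and 9.09 points, and chromosome 3 lowest at -13.0 and -6.01.

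The size and, in diploid cells, the direction of this lead depended on which bins stood for the other autosomes. Weighted to the G+C classes of chromosome 11 (1 percentage point wide), the other autosomes were replicated to 71.1% in haploid cells, which left a lead of 5.45 ± 3.76 points, above 0 in 72 of 75 cells. In diploid cells they were at 66.1% and chromosome 11 was behind, at -3.39 ± 2.49 points and above 0 in 8 of 63 cells. Weighted to 7 classes of gene count within 500 kb, the lead was 7.45 ± 3.22 points in haploid and -0.441 ± 2.65 points in diploid cells. Across the 19 autosomes the mean lead and the gene density had a Pearson r of 0.858 in haploid and 0.808 in diploid cells, or 0.815 and 0.747 without chromosome 11. These values are a description over chromosomes measured in the same cells.

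The least and most advanced haploid cells showed the ends of the programme. In the 8 haploid cells with under 35% of the other autosomes replicated, chromosome 11 was at 46.8% at the lowest, 48.9% at the median and 62.8% at the highest. In all 8 of them 559 bins (24.1%) were replicated, against 8.43% of the bins of the other autosomes, and in none of them 521 (22.5%), against 42.1%. In the 17 haploid cells above 75%, chromosome 11 was at 85.7%, 91.1% and 96.5%. Over all 75 haploid cells 371 bins (16.0%) were replicated in every cell, against 5.64% on the other autosomes, and 12 bins (0.518%) in none, close to the 0.463% elsewhere. Over the 63 diploid cells 6 bins (0.259%) were replicated on both homologs in every cell, against 0.939% elsewhere, and 56 (2.42%) in none, against 4.06%. A count over every cell is limited by the least advanced cells. The 2 diploid cells under 35% shared only 92 replicated bins (3.97%), so these counts do not compare the lines.

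Borders were drawn from the average of these same cells, so the direction of the step across them is given by the definition and only its size is described. From the 250 kb on the early side to the 250 kb on the late side, the median drop in mid-S-phase cells was 30 percentage points in haploid cells, from 7.50 to 55.8, and 33.9 points in diploid cells, from 6.09 to 54.8. A mid-S-phase haploid cell had 35.2 ± 4.87 changes of state along chromosome 11 (SD, n = 24) and a diploid cell 44.7 ± 8.14 over both homologs (n = 46). Per 100 Mb this was 29.7 ± 4.10 in haploid cells, below the 39.7 ± 3.48 of the other autosomes, and 37.7 ± 6.86 against 40.4 ± 3.83 in diploid cells.

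A change of state lay within 250 kb of 54.0% ± 12.9 of the borders in haploid and 61.2% ± 13.3 in diploid mid-S-phase cells. On the other autosomes the shares were 56.4% ± 7.46 and 57.9% ± 9.18. The within-cell difference was smaller than its spread, at -2.34 ± 9.29 points in haploid and 3.26 ± 10.4 points in diploid cells. Chromosome 11 was higher in 12 of 24 and 28 of 46 cells. These shares also depend on the number of changes in a cell, which differed between lines and chromosomes as given above. They do not compare the alignment alone, and no share for randomly placed changes is given. The border used by most haploid cells, 22 of 24, was at chr11:57350001, next to the domain of Gria1, a glutamate receptor subunit. In diploid cells it was at chr11:73400001, where 45 of 46 cells had a step at the start of a cluster of olfactory receptor and zinc finger genes. The fewest haploid cells, 6 of 24, had a step at chr11:21500001 and chr11:108250001, both flanking late domains of 0.650 Mb. In diploid cells chr11:21500001 was again lowest, with 12 of 46.

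Borders mapped separately in the lines numbered 36 in each, and 20 of the 36 lay within 250 kb of a border of the other line, with a median distance of 200 kb. In haploid cells 70.2% of chromosome 11 bins were early and in diploid cells 60.3%. Early in both were 60.3% of bins, early only on the haploid schedule 9.85%, and early only on the diploid schedule 0.0432%. Bins that changed side between the schedules were thus nearly all earlier on the haploid schedule. Each schedule ranks all autosomal bins together, so the shift in score of the whole chromosome given below enters this count. Its part was not tested.

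Around the scheduled time, the share of replicated bins rose as a sigmoid of the hours by which a cell had passed a bin's schedule, and the time from 25% to 75% replicated is called T_width. On chromosome 11 it was 1.81 h in haploid and 1.65 h in diploid cells. These were the lowest of the 19 autosomes in both lines, against 1.85 h (chromosome 19) to 2.18 h (chromosome 18) in haploid and 1.85 h (chromosome 5) to 2.11 h (chromosome 14) in diploid cells. The mean over the other autosomes was 2.06 ± 0.0891 h and 1.96 ± 0.0765 h (SD, n = 18 autosomes). The rank depended on the schedule. With a schedule from the other line alone, T_width was 1.99 h in haploid cells, second lowest, and 2.08 h in diploid cells, seventh lowest.

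The curve of chromosome 11 was also displaced, in opposite directions in the lines. Its midpoint was at -0.788 h in haploid cells, earlier than on any other autosome (-0.419 to 0.440 h), and at 0.105 h in diploid cells, later than on any other (-0.373 to 0.0621 h). At 0.05 h past schedule 71.6% of haploid and 45.1% of diploid observations were replicated. The diploid curve levelled off at 96.0%, the haploid one at 99.2%. The schedule was built from both lines together, so a displacement in one line goes with the opposite one in the other.

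**Figure D4:**
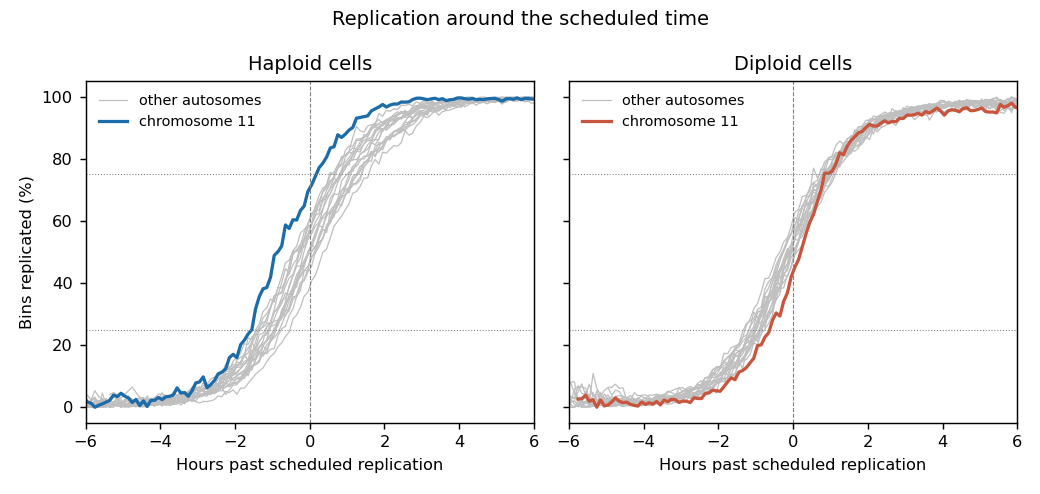
Percentage of bins replicated (vertical axis) against hours past the scheduled replication of the bin (horizontal axis, intervals of 0.1 h) in haploid cells (left) and diploid cells (right), for chromosome 11 in colour and each of the other 18 autosomes in grey. The chromosome 11 curve has its midpoint at -0.788 h in haploid and 0.105 h in diploid cells, outside the other autosomes on opposite sides.

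Early and late bins of chromosome 11 were fitted apart. In haploid cells T_width was 1.98 h for early bins, below all other autosomes (2.15 to 2.95 h), and 1.88 h for late bins, where 11 of 18 autosomes were lower. In diploid cells it was 1.63 h for early and 1.52 h for late bins, below all other autosomes (1.75 to 2.34 h and 1.69 to 2.15 h). Fitted within single mid-S-phase cells on chromosome 11 alone, with intervals of 0.5 h, it was 1.8 ± 0.301 h in 24 haploid and 1.55 ± 0.540 h in 45 of 46 diploid cells, 1 of which could not be fitted. The spread between cells exceeded the difference between the lines.

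Pairs of cells within 1 percentage point of progress gave a second view of variation. Within 1 h of its schedule, a chromosome 11 bin differed in 36.2% ± 8.45 of cases between 2 haploid cells (85 pairs of 67 cells), against 41.6% ± 2.66 on the other autosomes, and was lower in 64 of 85 pairs. In diploid cells the shares were 39.7% ± 6.92 and 41.7% ± 3.35 (163 pairs of 59 cells, lower in 103). More than 3 h away, bins differed in 2.13% ± 2.94 against 2.57% ± 1.86 in haploid and 6.96% ± 5.75 against 4.49% ± 2.84 in diploid pairs. The schedule was ranked from these same cells, so more differences near it than far from it are built in, and the shares are a description. The haploid curve of chromosome 11 had its midpoint at -0.788 h, with 71.6% replicated at 0.05 h past schedule. The window of 1 h was therefore off the centre of that curve. The part of this in the lower haploid share was not tested. Pairs share cells and are not independent.

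Homologs of chromosome 11 were rarely called apart in diploid cells, in which both started from 1 call and were separated only where enough homolog-specific reads differed. On average 0.602% ± 1.45 of its bins had 1 homolog replicated and the other not (SD, n = 63), against 0.884% ± 1.62 on the other autosomes. Most cells had none, and the top cell reached 6.44%. Only chromosomes 5, 16 and 19 had lower shares. Any such bin was found in 17 of 63 cells. The 129 homolog alone was replicated in 0.459% ± 1.09 and the Castaneus homolog alone in 0.143% ± 0.445 of bins. The 129 homolog was in the majority in 15 of these 17 cells. This split is not given for the other autosomes, so it is not shown to be particular to chromosome 11. The authors' limit for a call was slightly lower for 129 than for Castaneus, and the part of this in the split was not tested. In all 760 bins (32.8%) were asynchronous in at least 1 cell, against 40.8% of the bins of the other autosomes, and none in more than 4. The most recurrent stretch, chr11:52550001-53350000, with the follistatin-like gene Fstl4 and the heat shock protein gene Hspa4, was asynchronous with 129 ahead in 3 cells and Castaneus ahead in 1. Among the diploid cells, 3 pairs had smoothed profiles with correlations of 0.90 to 0.913, above the next pair at 0.86. The highest cell, F11, was in one of them, and without 1 cell of each pair the mean was 0.517% ± 1.27.

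The lines were compared at like progress through the smoothed score, a centred and scaled copy number with no unit, within strata of 5 percentage points (50 haploid and 62 diploid cells in 9 strata). The median difference on chromosome 11, haploid minus diploid, was 0.262, with 2229 of 2315 bins (96.3%) above 0. This was the highest median of the 19 autosomes, followed by 0.175 on chromosome 19 and ending with -0.162 on chromosome 3, while 52.5% of bins of the other autosomes were above 0. The shift was present in early bins (0.284) and late bins (0.217) alike. In single cells the median score of chromosome 11 minus that of the other autosomes was 0.010 at the lowest, 0.25 at the median and 0.960 at the highest in haploid cells, and -0.012, 0.123 and 0.383 in diploid cells, so the lines overlapped.

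Over the autosomes this median difference had a Pearson r of 0.942 with G+C (n = 19, or 0.922 without chromosome 11). With the other autosomes weighted to the G+C classes of chromosome 11, the mean difference was 0.260 on chromosome 11 and -0.00960 on the other autosomes. At the same hour of the diploid schedule, haploid scores were 0.131 to 0.295 higher on chromosome 11 than on the other autosomes in each of the 10 hours. At the same hour of the haploid schedule, the diploid scores of chromosome 11 minus those of the other autosomes ran from -0.313 to -0.145. The authors rescaled chromosomes of aneuploid cells to the control cells, and which cells were rescaled is not marked in the tables. The part of this step and of base composition in the shift was not tested.

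A difference of at least 0.5 in score, higher in haploid cells, was reached by 54 of 2315 chromosome 11 bins (2.33%). Over all autosomes it was reached by 205 of 45112 bins, 0.454%, and only chromosome 19 had a higher share, 2.97%. In the other direction no chromosome 11 bin reached -0.5, where 0.902% of all autosomal bins did. The count rests on the shift of the whole chromosome: with the score of each chromosome centred on its own median in each cell, none of the 54 bins was left. Of the 54 bins, 24 formed 1 unbroken region, chr11:25450001-26650000, and 2 further regions had at least 5 bins. These regions were chosen by the score difference in these same cells, and the states were called from the score. The direction of the differences given for them below is therefore built in, and the values are a description.

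**Figure D5:**
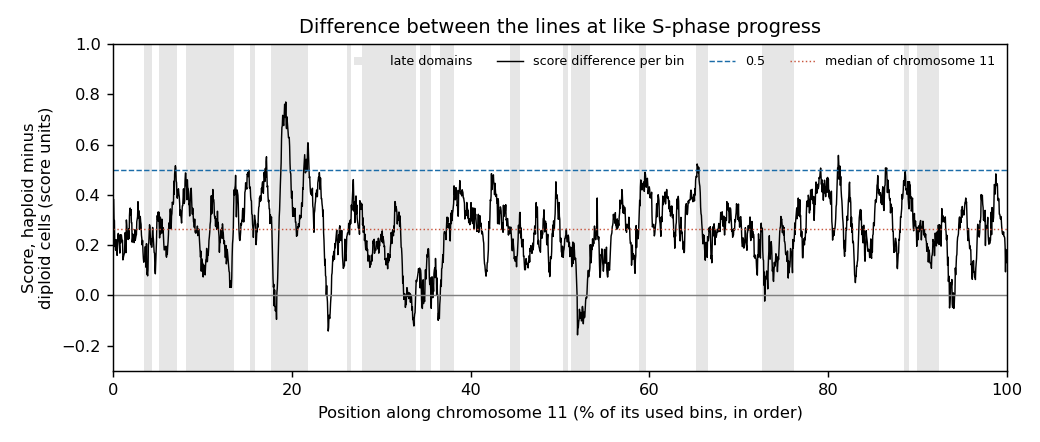
Smoothed score of haploid minus diploid cells at like S-phase progress (vertical axis, score units) for each used bin along chromosome 11 (horizontal axis, % of its bins), with late domains shaded, the limit of 0.5 dashed and the chromosome 11 median of 0.262 dotted. The highest peak, in a late domain, is the region of Vrk2 and Fancl.

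The Vrk2 and Fancl region, whose 2 promoters held few CG, was scheduled at 5.15 h in haploid and 7.54 h in diploid cells. Its score in mid-S-phase cells was -0.619 at the lowest, 0.0114 at the median and 0.521 at the highest in 24 haploid cells, and -1.26, -0.735 and -0.186 in 46 diploid cells. The mean difference at like progress was 0.668, and 0.346 after centring. By state, the region was replicated to 61.8% in haploid and 11.7% in diploid mid-S-phase cells, and at least 50% of it was replicated in 18 of 24 and 6 of 46 cells. The lines overlapped, since the lowest haploid cell had 0% of it replicated and the highest diploid cell 66.7%.

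The second region, chr11:28550001-29250000, adjoins the border of the same late domain and holds Ccdc85a, Efemp1, an extracellular matrix fibulin, Ppp4r3b, Pnpt1, a mitochondrial RNA-processing enzyme, and Cfap36. It was replicated to 72.3% in haploid and 28.4% in diploid mid-S-phase cells, with a score difference of 0.535. The last, chr11:99550001-99900000, lies within the keratin cluster and holds 31 protein-coding genes, among them Krtap1-4 and Krtap4-9 for keratin-associated proteins of hair. It stood at 89.9% and 38.5%, with a difference of 0.507. Smaller groups of bins lay at Zpbp and Spata48 (chr11:11350001-11500000), Usp34 (chr11:23400001-23600000), Asic2 (chr11:81000001-81250000), Npepps (chr11:97250001-97300000) and Tanc2 (chr11:105800001-106000000). The lowest value along the chromosome was -0.157, at chr11:65000001-65050000. It lay in a stretch, chr11:64950001-66250000, with Dnah9, an axonemal dynein, Map2k4, a stress-kinase activator, and Myocd, a smooth muscle coactivator. Mid-S-phase cells had replicated 22.4% of this stretch in haploid and 31.4% in diploid cells, against the trend of the chromosome.

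Gene groups fixed by name were set on the same map. Of 1571 protein-coding genes of chromosome 11 with a used bin, 1451 (92.4%) were early, with a median of 2.74 h, so early counts below are read against that share. Neighbouring genes share bins, so members of a cluster are not separate measurements. All 10 Hoxb genes, homeobox factors of body patterning, were early, from 1.11 to 1.72 h. They were replicated in 100% of haploid and 92.4% to 94.6% of diploid mid-S-phase observations. The 3 alpha globin genes lay in 1 bin at 2.42 h, with 100% and 97.8%. In the Th2 group, named for signals of type 2 immunity, the cytokine genes Il3, Il4, Il5, Il13 and Csf2 ran from 2.76 to 3.26 h. The transcription factor gene Irf1, the other of the 6 genes in this group, was at 2.59 h. The 10 chromatin and stem cell regulators were all early, from 0.766 h for the Polycomb genes Cbx2 and Cbx8 to 3.85 h for Smarce1, a subunit of the BAF remodeller. Stat3, which transmits the LIF signal, was at 1.46 h.

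Of 12 genome maintenance genes 11 were early, from Top3a, a topoisomerase, at 0.463 h to Rad51d, a recombination factor, at 4.05 h. Trp53 was at 3.44 h and Brca1 at 2.30 h. The late one was Fancl at 6.29 h. It was at 63.9% in haploid and 17.4% in diploid mid-S-phase observations, while the other 11 were between 91.7% and 100% in haploid and between 87.0% and 97.8% in diploid cells.

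Several families were split by their place on the chromosome. Of 11 CC chemokine genes, the group around Ccl2, a monocyte attractant, with Ccl1, Ccl7, Ccl8, Ccl11 and Ccl12 was late, from 5.76 to 6.10 h. The group of Ccl3, Ccl4, Ccl5, Ccl6 and Ccl9, about 1 Mb further, was early, from 2.84 to 3.17 h. In mid-S-phase haploid cells the first group was at 29.2% to 45.8% and the second at 100%, and in diploid cells at 13.0% to 26.1% and 87.0% to 93.5%. Of 82 olfactory receptor genes with a used bin 59 were early and 23 late. The largest cluster, 29 genes at chr11:73350859-74365609, had a median of 5.84 h, and the other 5 clusters had medians from 1.39 to 3.72 h. All 27 type I keratin genes, filament proteins of epithelia, were early, but from 0.761 h for Krt17 to 4.79 h for Krt39 and Krt40, at 95.7% and 43.5% in diploid mid-S-phase cells.

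The GABA-A subunit genes Gabra6 and Gabrb2 were late, at 8.58 h and 8.61 h. Gabrb2 was at 0.833% of haploid and 0% of diploid mid-S-phase observations. Of 10 developmental transcription factor genes 6 were early and 4 late. Meis1 was latest at 7.04 h, followed by Otx1, a forebrain factor, at 5.49 h, Ebf1, a B cell factor, at 5.37 h, and Sox9, a factor of cartilage and testis, at 5.29 h and next to a border. Of 10 large neuronal and adhesion genes 4 were early. Msi2, an RNA-binding protein of stem cells, was at 1.06 h and Rbfox3 at 1.33 h, whereas Sgcd, a muscle sarcoglycan, was latest at 7.62 h. Sgcd was at 3.51% of haploid and 0.858% of diploid mid-S-phase observations.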

How the data were processed

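DNA copy number was measured in single S-phase ESCs of a haploid and a hybrid diploid line. The authors mapped reads to mm10 with Bowtie2, counted them in 50 kb windows, scaled them to sequencing depth, divided them by control G1 and G2 cells, rescaled chromosomes of aneuploid cells, centred and scaled each cell and applied a median filter along the chromosome, which blurs borders. The deposited smoothed values are a score with no unit. The authors then segmented the score and called each bin replicated or unreplicated, and these deposited states are a category of 0 or 1, given per homolog in diploid cells.

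Groups came from the sample labels. Columns of 8 diploid cells that matched no label (24 columns) were not used. A bin was used with a state in every cell and scores in 50% or more of haploid and of diploid cells. Progress of a cell is the percentage of bins replicated on the other 18 autosomes. Schedules for T_width left out the cell concerned, and the sigmoid was fitted with scipy 1.17.1 to intervals of 0.1 h with at least 100 values. Genes, promoters and sequence were from RefSeq GRCm38.p6. All values were computed in Python with numpy and pandas. The fits and the line comparison were run on simulated data with independent noise in each bin. Those data lacked the smoothing and segmentation of the real ones, so they check the code only. With 1 sample per line, no p-value was computed. Some members of the lists are not reported here. Named genes are fixed lists, and up to 6 of the longest protein-coding genes in the longest domains, extreme bins and regions past a line difference of 0.5. Genes named at other domains, borders and bins were chosen after their values were seen. Members and lists were chosen with earlier results of these data known. Alternative bins, schedules, distances and strata were tried.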

Additional observations from a re-analysis of the deposited data

How the results depend on the processing

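The labels name no plates or cultures for the cells of a line, and depth per cell is unknown, so a difference between the lines has no error of its own. Smoothing and segmentation limit where a border can be placed. No paired analysis was possible because the well positions only name cells. Of 43 recomputed values 26 stayed within a limit, 15 moved further and 2 reversed, and the cause was not tested. The limit was the spread between cells for the lead, the share of borders and the homologs, and 1.5 times for counts. For T_width it was the SD over the other autosomes. For the early share it was a binomial error that takes bins as independent, which neighbouring bins are not. The lead of chromosome 11 in diploid cells was 6.02 points from scores above 0. Weighted to the same G+C or gene count, alternatives chosen after seeing the data, it was 5.45 and 7.45 points in haploid and reversed to -3.39 and -0.441 points in diploid cells. The early share was 70.2% on the haploid schedule, 60.3% on the diploid one and 53.4% with each chromosome centred. Within 100 kb and 500 kb of borders, a change of state was found for 28.7% and 70.2% in haploid and 35.5% and 77.8% in diploid cells. T_width with the other line's schedule was 1.99 h in haploid and 2.08 h in diploid cells, and 1.83 h in diploid cells with a schedule from states. The count of 54 bins was 125 in mid-S-phase cells without strata and 0 with centred chromosomes. Leaving out 1 cell of each similar diploid pair, partly chosen after seeing the data, moved no value this far.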
